A study of Mus musculus with 14 samples.

Results

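The genes examined were 9 that are associated with callosal and upper-layer neurons, namely Cux1, Cux2, Pou3f1, Pou3f2, Pou3f3, Lmo4, Inhba, Chn2 and Gucy1a1. Their members were the 27 probe sets that the platform annotation pairs with exactly 1 of these symbols, out of 45037 probe sets on the array. Of the 27, 18 lay above a log2 level of 4 on at least 3 of the 14 arrays, and the other 9 stayed below that filter. All 9 genes kept at least 1 probe set, and the 9 dim probe sets lay between 1.56 and 4.39. Cux1 had 9 probe sets (5 above the filter), Cux2, Pou3f2 and Gucy1a1 had 3 each (2, 3 and 1 above), Pou3f1, Pou3f3, Inhba and Chn2 had 2 each (2, 1, 1 and 2 above), and Lmo4 had 1.

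The arrays measured RNA from neocortical cells of CD1 mouse embryos after in utero electroporation at E14.5, in which plasmid DNA is injected into the lateral ventricle and driven into the cells lining it by electric pulses. The plasmid was either Fezf2GFP, an expression vector for the transcription factor Fezf2 with GFP, or CtrlGFP, the GFP vector without Fezf2. Electroporated cells were then purified by FACS, and their RNA was amplified in 2 rounds before hybridisation. The groups comprised 4 arrays labelled Fezf2GFP at 48 h after electroporation, 4 labelled CtrlGFP at 48 h, 3 labelled Fezf2GFP at 24 h and 3 labelled CtrlGFP at 24 h. The promoter that drove the vectors, the number of embryos behind an array and the litters they came from are not stated in the labels. The p-values below therefore weigh differences between group means against the spread among these arrays, and some of that spread may be technical. All 4 groups received the same operation, and the cells are those that took up the DNA, not a sorted neuron type.

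Upper-layer neurons of the neocortex are born late and many of them send axons through the corpus callosum to the other hemisphere. Progenitors at the age electroporated here mainly produce such neurons, and Fezf2 is known for specifying the deep-layer neurons that project below the cortex instead. Cux1 and Cux2 are homeobox factors of the Cut family that mark upper layers and act in their dendrite and spine growth. Pou3f1, Pou3f2 and Pou3f3 are POU domain factors, of which Pou3f2 and Pou3f3 act in upper-layer neuron production and migration. Lmo4 is a LIM-only transcriptional cofactor found in callosal neurons, while Inhba, Chn2 and Gucy1a1 encode signalling proteins.

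The deposited values were log2 levels made with GCRMA, and array medians ran from 3.26 to 3.50. The Fezf2 probe set was at 10.25, 8.67, 8.93 and 9.48 on the arrays labelled Fezf2GFP at 48 h, against 10.65, 9.63, 10.44 and 9.87 on those labelled CtrlGFP. At 24 h it was at 9.31, 9.50 and 9.52 on the arrays labelled Fezf2GFP, against 10.82, 11.54 and 11.54 on those labelled CtrlGFP, which is lower and not higher (log2 fold change −1.86 ± 0.38 SE, limma adjusted p = 0.0324). Which part of the transcript this probe set reads is not stated in the files, and a probe set outside the inserted sequence would check nothing, so groups are named below by their labels. The dorsal forebrain markers Emx1, Emx2 and Lhx2 lay above the filter, and Emx1 was higher on the arrays labelled Fezf2GFP at 48 h (1.06 ± 0.25 SE, adjusted p = 0.0404). The summed log2 level of 8 projection neuron markers ran from 105.99 to 109.12 on the Fezf2GFP arrays, against 101.59 to 105.89 on the CtrlGFP arrays, at 48 h, and from 101.41 to 102.50 (Fezf2GFP) against 94.53 to 99.99 (CtrlGFP) at 24 h. None of the 8 passed between the vectors at either time. The summed level of 6 intermediate progenitor markers ran from 73.40 to 74.99 (Fezf2GFP) against 75.42 to 76.41 (CtrlGFP) at 24 h. At 48 h it ran from 66.08 to 68.97 against 67.48 to 70.52, and 1 marker passed as lower. The summed level of 8 radial glia markers ran from 87.17 to 93.49 (Fezf2GFP) against 83.32 to 88.53 (CtrlGFP) at 48 h, when 1 passed as higher. That of 4 Cajal-Retzius markers ran from 20.99 to 25.05 (Fezf2GFP) against 13.86 to 17.90 (CtrlGFP) at 48 h. Trp73 and Lhx1 lay below the filter, and 1 of the other 2 passed as higher at 48 h. For 6 interneuron markers the sum ran from 34.79 to 39.75 (Fezf2GFP) against 27.05 to 39.68 (CtrlGFP) at 48 h. At 24 h it ran from 24.85 to 42.87 (Fezf2GFP) against 24.90 to 25.56 (CtrlGFP), and no interneuron marker passed at either time. All of the erythroid markers measured, 5 of 6 microglial and 4 of 6 endothelial markers lay below the filter. The 2 arrays CtrlGFP at 24 h replicate 1 and CtrlGFP at 48 h replicate 2 stood apart, with a mean correlation over all genes of 0.986 and 0.985 with the rest of their groups, where the other CtrlGFP arrays had 0.991 to 0.993. The part of these markers and arrays in the results below was not tested, beyond the values given without those arrays.

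The first question was which of the 9 genes differed between the vectors. At 48 h, Inhba was higher on the arrays labelled Fezf2GFP and Cux1 and Cux2 were lower on every one of their probe sets above the filter, although the test was passed for Cux1 in only 2 of its 5. Probe sets of 1 gene were read on the same arrays and are not replicates. Pou3f1 and Chn2 were higher without passing, and Pou3f2, Pou3f3, Gucy1a1 and Lmo4 had intervals that included 0. These are levels in bulk RNA, in which fewer cells of a type and less RNA per cell cannot be told apart. With each gene represented by its brightest probe set, 1 of 9 genes passed an adjusted p of 0.05 at 48 h (Inhba), where 3.13% of the 10295 genes tested did. At 24 h, 0 of 9 passed with limma, 3 of 9 (Pou3f2, Chn2 and Gucy1a1) had an unadjusted p under 0.05, where 8.85% of all genes did and 1.06% passed the adjusted threshold. Among the 18 probe sets, 3 passed at 48 h (2 of Cux1 lower, 1 of Inhba higher) against 2.06% of 17407 probe sets, and 1 passed at 24 h (Chn2, higher) against 0.695%. No overlap between the vectors was seen for 4 of 9 genes at 48 h, where 9.07% of all genes had no overlap: Inhba and Pou3f1 were higher, and Cux1 and Cux2 lower, on the arrays labelled Fezf2GFP. At 24 h 4 of 9 did not overlap, with Pou3f1, Chn2 and Gucy1a1 higher and Pou3f2 lower, against a background of 19.6%. The median log2 fold change of the 9 genes was 0.31 at 48 h (0.06 over all genes) and 0.10 at 24 h (0.06 over all genes). No member passed the test of the difference between the 48 h and 24 h vector effects, which 0.0971% of all genes did. The 9 genes were chosen with earlier results of these data known, so setting their counts beside the shares over all genes is no test.

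**Figure D1:**
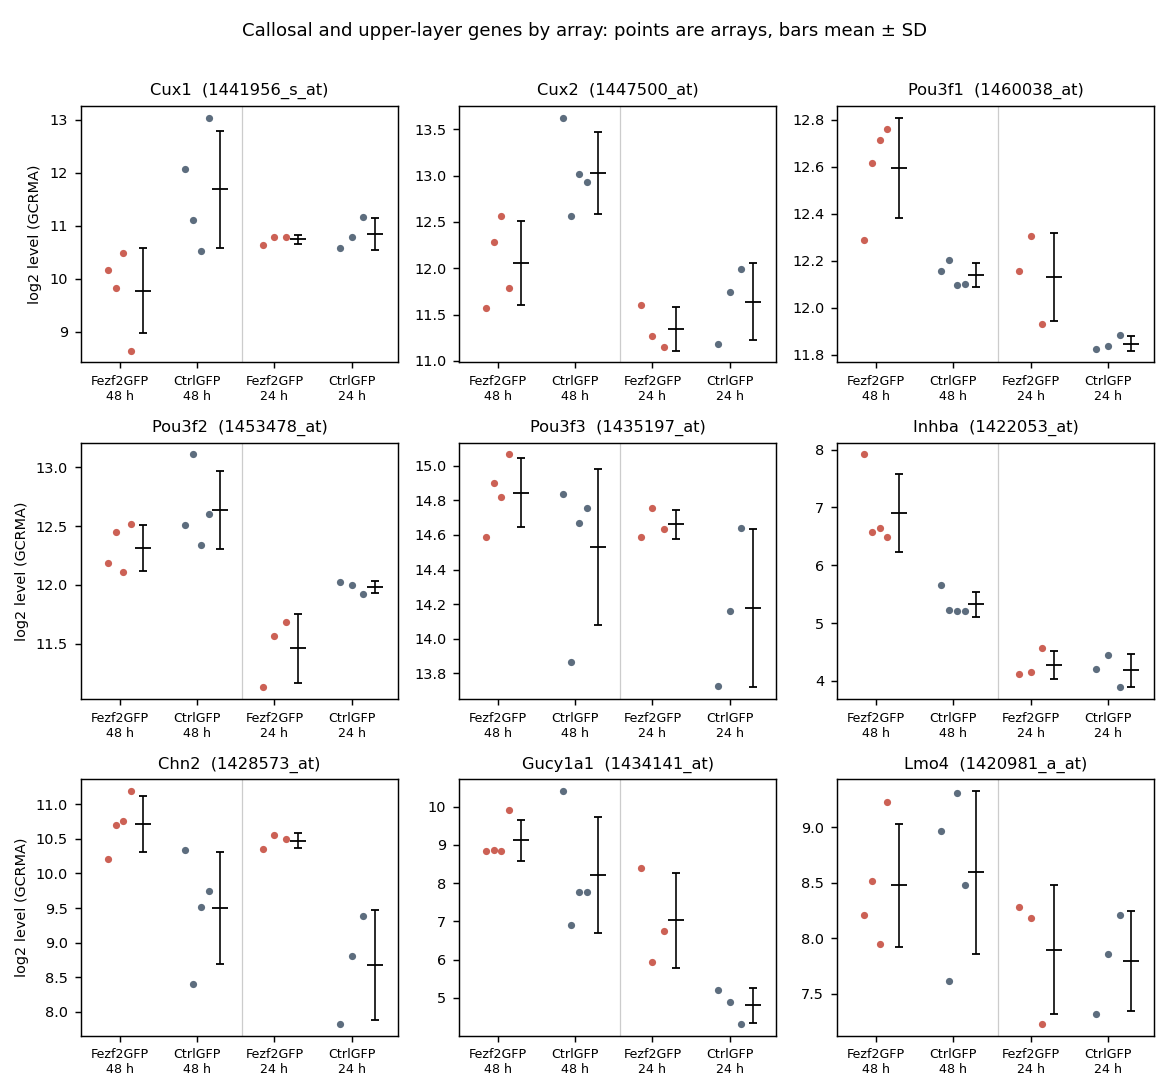
Log2 level (vertical axis, GCRMA values) of the brightest probe set of each of the 9 genes on each of the 14 arrays, with red points for arrays labelled Fezf2GFP and dark points for CtrlGFP, 48 h left of 24 h, and black bars for mean ± SD. At 48 h the Inhba points of the Fezf2GFP arrays sit between 6.50 and 7.92 and those of the CtrlGFP arrays between 5.20 and 5.65, whereas the Lmo4 and Pou3f3 points of the vectors overlap.

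**Figure D2:**
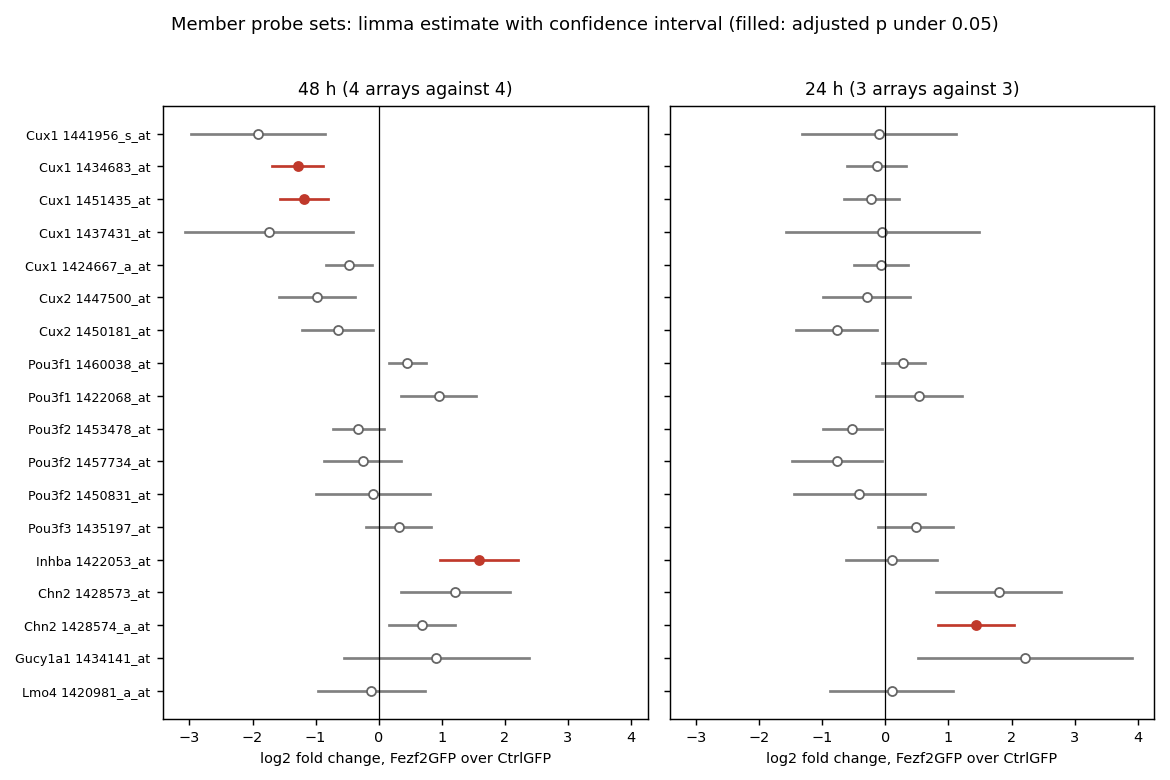
Log2 fold change of Fezf2GFP over CtrlGFP (horizontal axis) with its 95% interval for the 18 member probe sets at 48 h and at 24 h. Filled red points passed an adjusted p of 0.05; at 48 h all 7 Cux1 and Cux2 probe sets lie left of 0, and Inhba lies at 1.59.

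Cux1 was read by 5 probe sets above the filter, and each was lower on average on the arrays labelled Fezf2GFP at 48 h. Probe set 1434683_at stood at 9.34, 9.89, 10.24 and 9.77 on the Fezf2GFP arrays, against 11.39, 10.86, 10.93 and 11.17 on the CtrlGFP arrays. The highest Fezf2GFP array lay below the lowest CtrlGFP array, and the level was 2.43-fold lower (log2 fold change −1.28 ± 0.19 SE, limma adjusted p = 0.00303). Probe set 1451435_at stood at 9.62, 10.11, 9.90 and 9.37 on the Fezf2GFP arrays, against 10.73, 11.13, 10.84 and 11.04 on the CtrlGFP arrays. Again no array overlapped, and it was 2.27-fold lower (log2 fold change −1.18 ± 0.18 SE, limma adjusted p = 0.00370). Both probe sets passed under all 16 alternatives run on probe sets, with adjusted p-values up to 0.0132 and 0.0158. A fit of only the groups compared was not among them.

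The brightest Cux1 probe set, 1441956_s_at, had the largest estimate and did not pass. It stood at 10.17, 9.82, 10.49 and 8.64 on the Fezf2GFP arrays at 48 h, against 12.07, 11.12, 10.53 and 13.04 on the CtrlGFP arrays. The CtrlGFP arrays alone spanned 2.52 log2 units, and the gap between the vectors was 0.03. Its log2 fold change was −1.91 ± 0.48 SE with a limma adjusted p of 0.0523 in the fit over genes and 0.0723 in the fit over probe sets. Without CtrlGFP at 48 h replicate 3 it was −2.30, with an adjusted p of 0.0245 over genes and 0.0335 over probe sets. The suffix _s_at marks, in the array's design, probes shared by more than 1 transcript. Probe set 1437431_at was high on the same CtrlGFP arrays, replicates 1 and 4, with 7.05, 5.10, 5.05 and 8.50 on the CtrlGFP arrays (replicates 1 to 4) and 4.08 to 4.96 on the Fezf2GFP arrays. It did not pass (−1.74 ± 0.61 SE, limma adjusted p = 0.213), and neither did the dim 1424667_a_at (−0.47 ± 0.17 SE, limma adjusted p = 0.227). The latter stood between 4.66 and 4.67 on the Fezf2GFP arrays and between 4.69 and 5.47 on the CtrlGFP arrays.

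At 24 h none of the 5 Cux1 probe sets passed, and 1 of them left no overlap between the vectors. That was 1434683_at, at 10.43, 10.25 and 10.42 on the Fezf2GFP arrays, against 10.45, 10.47 and 10.59 on the CtrlGFP arrays. Its log2 fold change was −0.14 (95% interval −0.61 to 0.33), and those of the other 4 lay between −0.22 and −0.05, with limma adjusted p-values of 0.795 or more. The 48 h effect less the 24 h effect was −1.14 for 1434683_at (95% interval −1.76 to −0.52, limma adjusted p = 0.470) and −0.97 for 1451435_at (−1.55 to −0.38, adjusted p = 0.649), so a change of the effect with time did not pass. Between the times, 1451435_at rose in CtrlGFP, to a mean of 10.93 ± 0.18 at 48 h, against 10.25 ± 0.09 at 24 h (SD, n = 4 and 3; log2 fold change 0.69, limma adjusted p = 0.0409). In Fezf2GFP it averaged 9.75 ± 0.33 at 48 h and 10.03 ± 0.22 at 24 h (−0.28, adjusted p = 0.464).

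Cux2 was lower on the arrays labelled Fezf2GFP on both probe sets above the filter, and neither passed. The brighter, 1447500_at, stood at 11.57, 12.29, 12.56 and 11.79 on the Fezf2GFP arrays at 48 h, against 13.63, 12.56, 13.01 and 12.93 on the CtrlGFP arrays. The ranges met without overlapping: the highest Fezf2GFP array and the lowest CtrlGFP array, replicate 2, had the same value to 2 decimals. This came to −0.98 ± 0.27 SE, which did not pass (limma adjusted p = 0.0769). Probe set 1450181_at averaged 4.86 ± 0.35 on the Fezf2GFP arrays and 5.51 ± 0.45 on the CtrlGFP arrays (SD, n = 4 each; −0.65 ± 0.26 SE, limma adjusted p = 0.273). At 24 h 1450181_at was at 4.21, 3.79 and 3.82 on the Fezf2GFP arrays, against 5.16, 4.56 and 4.40 on the CtrlGFP arrays, with no overlap and no pass (−0.77 ± 0.30 SE, limma adjusted p = 0.500). With both control arrays that stood apart left out, the 48 h fold change of 1447500_at was −1.14, which passed in the fit over genes (adjusted p = 0.0382) and not in the fit over probe sets (adjusted p = 0.0526). With any single array left out, Cux2 lay between −1.15 and −0.78 and did not pass, with adjusted p-values from 0.0546 to 0.196 over genes. Over genes Cux2 passed in 4 of 25 alternatives, 1 of them being the fit without both control arrays. The others were the mean over probe sets (−0.59, limma adjusted p = 0.0419), array weights (−0.93, 0.0302) and the trend over gene span removed (−1.22, 0.0174). In the fit over probe sets 1447500_at passed in 0 of 16 alternatives.

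The brighter probe set stood at 11.61, 11.27 and 11.15 on the Fezf2GFP arrays at 24 h, against 11.18, 11.74 and 11.99 on the CtrlGFP arrays, and the vectors overlapped (−0.29 ± 0.32 SE, limma adjusted p = 0.779). With time Cux2 rose in CtrlGFP, where it averaged 13.03 ± 0.44 at 48 h and 11.64 ± 0.42 at 24 h (SD, n = 4 and 3). That rise of 1.40 ± 0.29 SE, or 2.63-fold, had a limma adjusted p of 0.00705 and passed in 25 of 25 alternatives, among which the mean over probe sets gave 0.74. In Fezf2GFP Cux2 averaged 12.05 ± 0.45 at 48 h and 11.34 ± 0.24 at 24 h, a difference of 0.71 ± 0.29 SE that did not pass (adjusted p = 0.152).

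**Figure D3:**
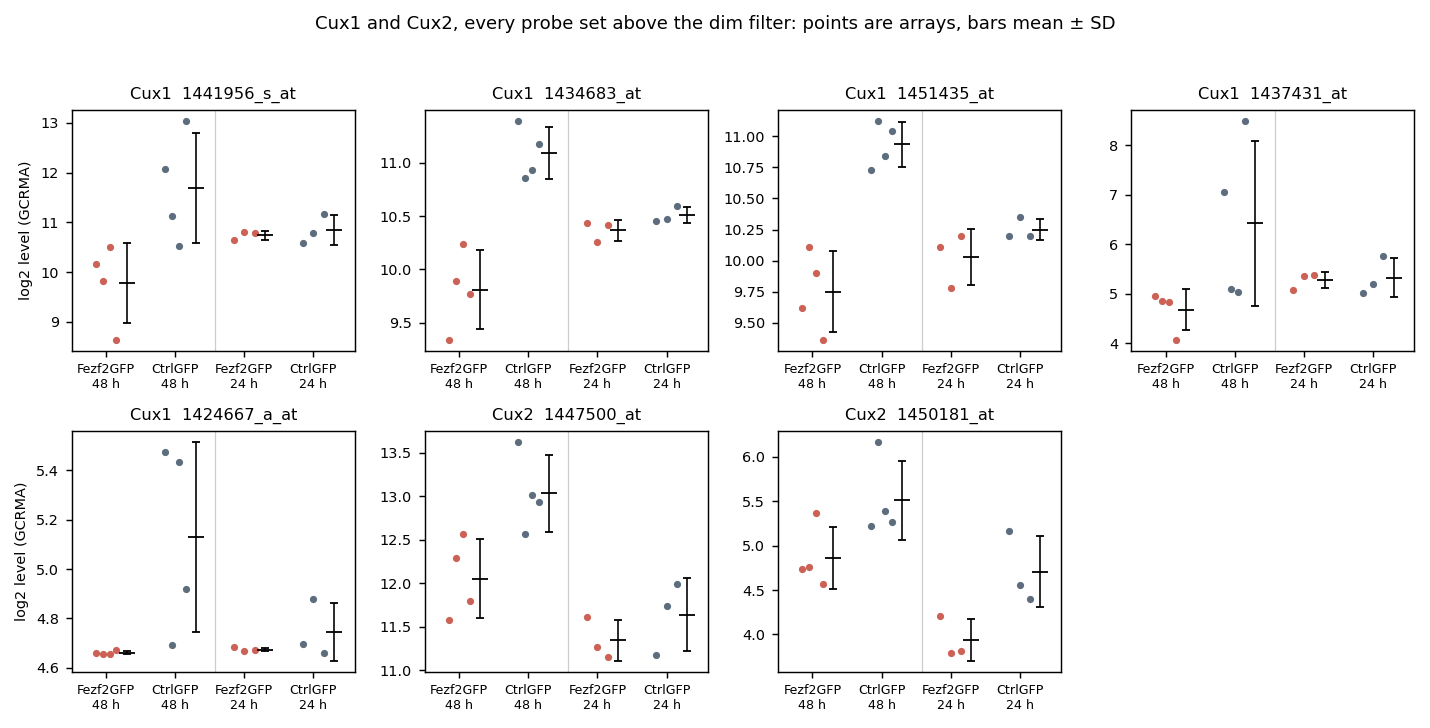
Log2 level on every array (vertical axis, GCRMA values; each panel has its own scale) of the 5 Cux1 and 2 Cux2 probe sets above the filter, with red points for Fezf2GFP and dark points for CtrlGFP, 48 h left of 24 h, and black bars for mean ± SD. Probe sets 1434683_at and 1451435_at have narrow groups that do not overlap at 48 h, whereas the 48 h CtrlGFP arrays of 1441956_s_at run from 10.53 to 13.04.

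The sequences upstream of the Cux genes are shown because their 7 probe sets all had estimates below 0 at 48 h, of which 2 of Cux1 and none of Cux2 passed, while Inhba was higher. RefSeq windows of the 250 bases before a transcription start (GRCm38.p6, 5′ to 3′ on the gene's strand) were found for 8 of the 9 genes, 15 windows in all, and none for Pou3f1. The printed starts lay inside the annotated gene, 1609 bases from its 5′ edge for Cux1 and 7595 for Inhba. For Cux2 the distance was 564 bases for the outer start and 2590 for the inner. They were searched on both strands for ATCGAT, a core site of Cut homeodomains, for ATGCAAAT, the octamer of POU factors, for CCAAT, the box for which Cux1 was named CCAAT displacement protein, and for TATAAA. Capitals mark the matches. The Cux1 window and the outer Cux2 window held no match, and the inner Cux2 window held ATCGAT at 72 to 67 bases before the start, sharing its last base with TATAAA at 67 to 62.
Cux1, chr5:136565982-136566231, minus strand: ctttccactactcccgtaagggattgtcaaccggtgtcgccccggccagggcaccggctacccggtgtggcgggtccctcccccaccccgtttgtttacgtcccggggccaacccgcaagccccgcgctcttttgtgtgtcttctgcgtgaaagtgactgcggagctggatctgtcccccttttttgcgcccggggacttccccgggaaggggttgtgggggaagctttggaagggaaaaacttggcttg
Cux2 outer start, chr5:122049852-122050101, minus strand: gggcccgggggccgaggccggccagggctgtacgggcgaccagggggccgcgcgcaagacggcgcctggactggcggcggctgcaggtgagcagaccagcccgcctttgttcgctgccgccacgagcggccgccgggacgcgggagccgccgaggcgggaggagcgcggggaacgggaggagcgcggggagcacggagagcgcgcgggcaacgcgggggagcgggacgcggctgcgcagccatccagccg
Cux2 inner start, chr5:122047826-122048075, minus strand: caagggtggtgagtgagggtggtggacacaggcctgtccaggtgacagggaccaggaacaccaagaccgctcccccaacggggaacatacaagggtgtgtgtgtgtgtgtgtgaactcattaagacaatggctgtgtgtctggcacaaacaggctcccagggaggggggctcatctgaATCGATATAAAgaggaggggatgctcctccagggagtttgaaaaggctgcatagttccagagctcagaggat
Inhba, chr13:16011601-16011850, plus strand: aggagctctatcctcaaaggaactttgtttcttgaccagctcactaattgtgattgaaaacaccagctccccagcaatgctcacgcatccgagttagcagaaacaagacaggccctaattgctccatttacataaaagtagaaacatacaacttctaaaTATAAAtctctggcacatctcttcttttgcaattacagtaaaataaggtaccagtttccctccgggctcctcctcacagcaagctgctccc
The Inhba window held TATAAA at 91 to 86 bases before the start. Of all 32851 mouse windows of this length, 0.728% held ATCGAT, 12.4% TATAAA, 33.8% CCAAT and 1.60% the octamer. CCAAT stood in the Pou3f2 window at 2 places, in the Pou3f3 window at 3 and in 1 of 4 Chn2 windows, and the octamer in 0 of 15. The Cux2 windows differed in base composition, with 80.0% G and C and 40 CpG in the outer and 55.2% and 3 CpG in the inner, and the Inhba window had 43.2% and 3 CpG. A match is a string of letters, and no occupancy was measured here.

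Of the POU genes, Pou3f1 was higher on the arrays labelled Fezf2GFP at both times on both probe sets, without passing. Its brighter probe set, 1460038_at, stood at 12.29, 12.62, 12.72 and 12.76 on the Fezf2GFP arrays at 48 h, against 12.16, 12.21, 12.10 and 12.10 on the CtrlGFP arrays. Those ranges did not overlap, with a gap of 0.08, and the estimate of 0.46 ± 0.14 SE did not pass (limma adjusted p = 0.102). Without Fezf2GFP at 48 h replicate 1, the lowest of its group, it was 0.56 and passed in the fit over genes (adjusted p = 0.0377) but not in the fit over probe sets (adjusted p = 0.0508), where it passed in 0 of 16 alternatives. Without other single arrays it was as low as 0.40, with adjusted p-values over genes up to 0.232. The second probe set, 1422068_at, stood at 11.87, 11.22, 11.60 and 12.40 on the Fezf2GFP arrays, against 10.43, 11.45, 10.54 and 10.87 on the CtrlGFP arrays. Only CtrlGFP replicate 2 reached into the Fezf2GFP range. Its fold change was 0.95 ± 0.27 SE (limma adjusted p = 0.112), and 1.16 with an adjusted p of 0.0462 without that array. At 24 h 1460038_at stood at 12.16, 12.30 and 11.93 on the Fezf2GFP arrays, against 11.82, 11.84 and 11.88 on the CtrlGFP arrays (0.28 ± 0.16 SE, limma adjusted p = 0.676). With time, 1422068_at rose in Fezf2GFP, to 11.77 ± 0.50 at 48 h, against 10.61 ± 0.28 at 24 h (SD, n = 4 and 3; 1.16 ± 0.29 SE, adjusted p = 0.0275), while in CtrlGFP it averaged 10.82 ± 0.46 at 48 h and 10.07 ± 0.22 at 24 h (0.75 ± 0.29 SE, adjusted p = 0.149).

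Pou3f2 did not pass between the vectors at either time, and its brightest probe set increased with time while the others did not pass. Probe set 1453478_at stood at 12.19, 12.45, 12.11 and 12.51 on the Fezf2GFP arrays at 48 h, against 12.51, 13.11, 12.34 and 12.60 on the CtrlGFP arrays, with overlap (−0.32 ± 0.19 SE, limma adjusted p = 0.462). Its 24 h values were 11.13, 11.56 and 11.69 on the Fezf2GFP arrays, against 12.03, 12.00 and 11.93 on the CtrlGFP arrays, with no overlap and no pass (−0.52 ± 0.21 SE, limma adjusted p = 0.467). All 3 Pou3f2 probe sets had estimates below 0 at both times, and the other pair did not pass either: 1457734_at was at −0.26 ± 0.28 SE at 48 h and −0.77 ± 0.33 SE at 24 h, where its arrays did not overlap either, and 1450831_at at −0.09 ± 0.42 SE at 48 h and −0.41 ± 0.48 SE at 24 h (limma adjusted p of 0.603 or more). The level rose in Fezf2GFP, to a mean of 12.31 ± 0.20 at 48 h, against 11.46 ± 0.29 at 24 h (SD, n = 4 and 3; 0.85 ± 0.20 SE, limma adjusted p = 0.0143). Without Fezf2GFP at 24 h replicate 1 this was 0.69 and did not pass (adjusted p = 0.0685). In CtrlGFP it rose to 12.64 ± 0.33 at 48 h, against 11.98 ± 0.05 at 24 h (0.66 ± 0.20 SE, limma adjusted p = 0.0496). That call lay at the threshold: it was kept without CtrlGFP at 48 h replicate 3 or Fezf2GFP at 24 h replicate 1 and lost without each of the other 12 arrays, with values from 0.50 to 0.70 and adjusted p-values from 0.0515 to 0.132. In the fit over probe sets it did not pass (limma adjusted p = 0.0621). The other Pou3f2 probe sets differed in sign in CtrlGFP, with 0.58 for 1450831_at (adjusted p = 0.537) and −0.21 for 1457734_at (adjusted p = 0.783). The mean over all 3 Pou3f2 probe sets gave 0.34 in CtrlGFP and did not pass (adjusted p = 0.357).

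Pou3f3 had a narrow range on the arrays labelled Fezf2GFP and a wider one on those labelled CtrlGFP. Probe set 1435197_at stood at 14.59, 14.90, 14.82 and 15.07 on the Fezf2GFP arrays at 48 h, against 14.84, 13.86, 14.67 and 14.76 on the CtrlGFP arrays. The values at 24 h were 14.59, 14.76 and 14.64 on the Fezf2GFP arrays, against 13.73, 14.16 and 14.64 on the CtrlGFP arrays. The low values, 13.86 and 13.73, belonged to the 2 control arrays that stood apart, and the vectors overlapped at both times (0.31 ± 0.24 SE, limma adjusted p = 0.597, at 48 h, and 0.48 ± 0.27 SE, adjusted p = 0.678, at 24 h). A further probe set paired with both Pou3f3 and 2900092D14Rik was left out by the rule. Lmo4, read by 1 probe set, stood at 8.21, 8.52, 7.95 and 9.23 on the Fezf2GFP arrays at 48 h, against 8.97, 7.62, 9.31 and 8.48 on the CtrlGFP arrays. The ranges covered each other, and the estimate was −0.12 with a 95% interval from −0.96 to 0.72 (limma adjusted p = 0.928). Its 24 h values were 8.28, 8.18 and 7.23 on the Fezf2GFP arrays, against 7.32, 7.86 and 8.21 on the CtrlGFP arrays (0.10 ± 0.45 SE, adjusted p = 0.953).

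Inhba, which encodes the βA subunit shared by activin A and inhibin A, was the only gene of the 9 whose brightest probe set passed between the vectors. Probe set 1422053_at stood at 7.92, 6.57, 6.65 and 6.50 on the Fezf2GFP arrays at 48 h, against 5.65, 5.22, 5.21 and 5.20 on the CtrlGFP arrays. Every Fezf2GFP array lay above every CtrlGFP array, with a gap of 0.84, and replicate 1 was the highest in both groups. Inhba was 3.0-fold higher (log2 fold change 1.59 ± 0.28 SE, limma adjusted p = 0.00859), and without Fezf2GFP replicate 1 the log2 fold change was 1.25 (adjusted p = 0.00338). Its 24 h level lay near the filter on the Fezf2GFP arrays, with 4.11, 4.16 and 4.56, and on the CtrlGFP arrays, with 4.20, 4.45 and 3.89. The vectors overlapped there (0.10, 95% interval −0.61 to 0.80, limma adjusted p = 0.933). The effect at 48 h exceeded that at 24 h by 1.49 ± 0.43 SE, which did not pass (limma adjusted p = 0.570).

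Inhba rose with time under both vectors. In Fezf2GFP it averaged 6.91 ± 0.68 at 48 h and 4.28 ± 0.25 at 24 h (SD, n = 4 and 3), a rise of 2.63 ± 0.31 SE or 6.19-fold (limma adjusted p = 0.000262). In CtrlGFP it averaged 5.32 ± 0.22 at 48 h and 4.18 ± 0.28 at 24 h, a rise of 1.14 ± 0.31 SE or 2.21-fold (limma adjusted p = 0.0265). The CtrlGFP call was lost without 24 h replicate 1 (1.15, adjusted p = 0.0680), 24 h replicate 3 (0.99, 0.105), 48 h replicate 1 (1.03, 0.0740) or 48 h replicate 4 (1.18, 0.0507) of that vector. The second Inhba probe set, 1458291_at, lay below the filter on all 14 arrays. Averaged with it, Inhba kept each of these calls at a smaller size, with 0.78 between the vectors at 48 h (adjusted p = 0.0151), 1.31 over time in Fezf2GFP and 0.56 over time in CtrlGFP (adjusted p = 0.0415).

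Chn2 encodes β2-chimaerin, a GTPase-activating protein that turns off Rac. It was higher on the arrays labelled Fezf2GFP on both probe sets at both times, and the test was passed by 1 probe set at 24 h. That probe set, 1428574_a_at, stood at 8.59, 8.39 and 8.20 on the Fezf2GFP arrays at 24 h, against 6.62, 6.79 and 7.44 on the CtrlGFP arrays. The groups did not overlap, and it was 2.72-fold higher (log2 fold change 1.44 ± 0.28 SE, limma adjusted p = 0.0349). The call was kept in 8 of 16 alternatives and lost without CtrlGFP at 24 h replicate 1 (1.28, adjusted p = 0.137) or 2 (1.36, 0.154), Fezf2GFP at 24 h replicate 1 (1.35, 0.182), 2 (1.44, 0.108) or 3 (1.54, 0.0829), or Fezf2GFP at 48 h replicate 2 (1.44, 0.0540). It was also lost with no filter (1.44, limma adjusted p = 0.0742) and without both control arrays that stood apart (1.28, 0.125). Of the 24 h arrays, only CtrlGFP replicate 3 could be left out with the call kept. Leaving out a 48 h array does not change this estimate.

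The brighter Chn2 probe set, 1428573_at, stood at 10.35, 10.56 and 10.51 on the Fezf2GFP arrays at 24 h, against 7.82, 8.81 and 9.39 on the CtrlGFP arrays. The gap of 0.96 left no overlap, but the CtrlGFP arrays spread over 1.57, and the estimate of 1.80 ± 0.45 SE did not pass (limma adjusted p = 0.0921). It passed without CtrlGFP at 48 h replicate 2 (1.80, adjusted p = 0.0304), an array outside the comparison that enters through the shared spread. At 48 h it stood at 10.21, 10.70, 10.75 and 11.19 on the Fezf2GFP arrays, against 10.34, 8.41, 9.51 and 9.74 on the CtrlGFP arrays. Only CtrlGFP replicate 1 reached into the Fezf2GFP range, and the other probe set, 1428574_a_at, overlapped too, at 7.34, 7.70, 8.19 and 7.85 on the Fezf2GFP arrays, against 6.70, 7.32, 7.45 and 6.87 on the CtrlGFP arrays (0.69 ± 0.24 SE, limma adjusted p = 0.212). For the brighter the difference did not pass (1.21 ± 0.39 SE, limma adjusted p = 0.135). In CtrlGFP, 48 h less 24 h was 0.82, which also passed only without 48 h replicate 2 of that vector among the single arrays left out (1.19, adjusted p = 0.0478).

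Gucy1a1 encodes the α1 subunit of soluble guanylate cyclase, the nitric oxide receptor that makes cGMP. Its only probe set above the filter, 1434141_at, stood at 8.85, 8.87, 8.85 and 9.93 on the Fezf2GFP arrays at 48 h, against 10.41, 6.90, 7.76 and 7.78 on the CtrlGFP arrays. The CtrlGFP arrays ran both above and below the Fezf2GFP arrays (0.91 ± 0.67 SE, limma adjusted p = 0.591). Earlier, at 24 h, it stood at 8.39, 5.94 and 6.75 on the Fezf2GFP arrays, against 5.21, 4.90 and 4.32 on the CtrlGFP arrays. Here no array overlapped, yet the spread among the Fezf2GFP arrays was wide and the estimate of 2.22 ± 0.77 SE did not pass (limma adjusted p = 0.314). Without Fezf2GFP at 24 h replicate 1, the array at 8.39, Gucy1a1 was at 1.54 (adjusted p = 0.864). The summed level of the 6 interneuron markers was 42.87, 24.85 and 34.04 on the same Fezf2GFP arrays, against 25.16, 25.56 and 24.90 on the CtrlGFP arrays. At 24 h the Fezf2GFP arrays ranked alike by this sum and by Gucy1a1, and the CtrlGFP arrays did not. At 48 h the sum was highest on Fezf2GFP replicate 3 (39.75), whereas Gucy1a1 was highest on replicate 4, where the sum was 35.09. The part of these markers in the 24 h difference was not tested.

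Gucy1a1 had the steepest rise with time of the 9 genes in CtrlGFP. It averaged 8.21 ± 1.52 at 48 h and 4.81 ± 0.45 at 24 h (SD, n = 4 and 3), which is 10.6-fold higher (3.40 ± 0.72 SE, limma adjusted p = 0.00731), and this passed in 25 of 25 alternatives. The size depended on 1 array: without CtrlGFP at 48 h replicate 1, the array at 10.41, the log2 rise of Gucy1a1 was 2.67 (adjusted p = 0.00914), and over all single arrays left out it ran from 2.67 to 3.84. With the mean over probe sets, which takes in the dim ones, it was 1.23 (adjusted p = 0.0168). The interneuron marker sum was also highest on that array, at 39.68 against 27.05 to 33.49 on the other CtrlGFP arrays at 48 h and 24.90 to 25.56 on those at 24 h. The lowest sum at 48 h was on CtrlGFP replicate 4, whereas the lowest Gucy1a1 value, 6.90, was on replicate 2. The part of these markers in the rise was not tested. In Fezf2GFP Gucy1a1 averaged 9.12 ± 0.53 at 48 h and 7.03 ± 1.25 at 24 h (2.10 ± 0.72 SE, adjusted p = 0.0820). That difference passed without Fezf2GFP at 24 h replicate 1, the array at 8.39 (2.78, adjusted p = 0.0363), and without CtrlGFP at 48 h replicate 1, the array at 10.41 (2.10, adjusted p = 0.0183).

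Read as a group over time in CtrlGFP, all 9 genes had estimates above 0 at 48 h against 24 h, with a median of 0.82 where that of all genes was −0.02. Of the 9, 4 rose and 0 fell (Cux2, Pou3f2, Inhba and Gucy1a1), against 12.6% of all genes past the threshold in either direction. Of the 18 probe sets, 4 rose (1 each of Cux1, Cux2, Inhba and Gucy1a1), against 9.49% of all probe sets. In Fezf2GFP 8 of 9 estimates lay above 0, the exception being Cux1 at −0.96 ± 0.52 SE (limma adjusted p = 0.292), and the median was 0.58 where that of all genes was −0.01. There 2 genes rose and 0 fell (Inhba and Pou3f2), against 12.1% of all genes, and 3 of 18 probe sets rose (1 each of Inhba, Pou3f1 and Pou3f2), against 8.76%. Markers of other stages moved over the same interval. The summed level of 8 radial glia markers, all above the filter, ran from 83.32 to 88.53 at 48 h, against 92.23 to 95.00 at 24 h, in CtrlGFP, and from 87.17 to 93.49 at 48 h, against 94.94 to 96.29 at 24 h, in Fezf2GFP. That of 6 intermediate progenitor markers, all above the filter, ran from 67.48 to 70.52 at 48 h, against 75.42 to 76.41 at 24 h, in CtrlGFP, and from 66.08 to 68.97 at 48 h, against 73.40 to 74.99 at 24 h, in Fezf2GFP. Neither sum overlapped between the times, and in CtrlGFP 2 of the 8 and 5 of the 6 fell and none rose. Of the 8 projection neuron markers 2 rose and 0 fell in CtrlGFP. Of 4 oligodendrocyte lineage markers, 2 lay above the filter, and of these 2 rose in CtrlGFP and 0 in Fezf2GFP. The part of these markers in the members' rise was not tested. The time comparisons and the vector comparisons share arrays, so these values stand side by side and are not independent.

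The other genes of the same pathways were taken from lists, and most of their members did not pass. For these lists, rose and fell mean higher and lower on the arrays labelled Fezf2GFP than on CtrlGFP at the same time. Of 30 other callosal and upper-layer genes, 23 were tested, and 1 rose and 0 fell at 48 h, when 3.13% of all genes passed: Dkk3, a secreted relative of the Wnt inhibitors, averaged 8.50 on the Fezf2GFP arrays and 6.79 on the CtrlGFP arrays (1.71 ± 0.35 SE, limma adjusted p = 0.0191). The median of the 23 was 0.08 at 48 h and 0.26 at 24 h, when none passed. Over all genes the median was 0.06 at both times and 1.06% passed at 24 h, and these are the values beside which the counts and medians of the lists below stand. The lists were chosen with earlier results of these data known, so setting their counts beside these shares is no test. Of 13 activin pathway genes tested, 2 rose and 0 fell at 48 h. The receptor Acvr1c averaged 7.15 on the Fezf2GFP arrays and 4.25 on the CtrlGFP arrays (2.89 ± 0.34 SE, adjusted p = 0.000484), and the signal transducer Smad3 averaged 8.85 on the Fezf2GFP arrays and 7.70 on the CtrlGFP arrays (1.14 ± 0.21 SE, adjusted p = 0.00876). The list's median was 0.46 at 48 h and 0.19 at 24 h.

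Among 8 genes of nitric oxide and cGMP signalling, the cGMP-dependent kinases Prkg1 and Prkg2 passed as higher in Fezf2GFP at both times. None passed as lower, and the list medians were 0.39 at 48 h and 0.60 at 24 h. Within Fezf2GFP both kinases were lower at 48 h than at 24 h (−2.36 for Prkg2, limma adjusted p = 0.000975, and −1.33 for Prkg1, 0.0106). In CtrlGFP neither change over time passed. Prkg2 averaged 4.82 ± 0.78 on the Fezf2GFP arrays and 3.18 ± 0.33 on the CtrlGFP arrays at 48 h (SD, n = 4 each), and 7.18 ± 0.23 (Fezf2GFP) and 3.75 ± 0.19 (CtrlGFP) at 24 h (SD, n = 3 each). All of these CtrlGFP arrays lay below the level of 4, so the fold was bounded against that level, at least 1.77-fold higher at 48 h (limma adjusted p = 0.0143) and at least 9.07-fold higher at 24 h (adjusted p = 0.000599). At 48 h 1 of the 4 Fezf2GFP arrays lay below 4 too, so that bound rests on a mean near the filter. Prkg2 passed the filter only through arrays labelled Fezf2GFP, so its entry to the test depended on the vector where it was high. Prkg1 was higher in Fezf2GFP by 1.12 ± 0.27 SE at 48 h (limma adjusted p = 0.0448), with 3 of 4 CtrlGFP arrays below 4, and by 1.62 ± 0.32 SE at 24 h (adjusted p = 0.0246). Of 11 genes around chimaerin and Rac, 2 rose and 0 fell at 48 h, the exchange factor Vav3 (1.74 ± 0.29 SE, limma adjusted p = 0.00598) and the ephrin ligand Efnb3 (1.09 ± 0.25 SE, adjusted p = 0.0336), and none passed at 24 h. Of 8 LIM cofactors and LIM-only genes, Lmo3 rose at 48 h, with means of 10.17 on the Fezf2GFP arrays and 7.71 on the CtrlGFP arrays (2.45 ± 0.29 SE, limma adjusted p = 0.000481), unlike the estimate for Lmo4; the difference between the genes was not tested. None of 3 other POU genes and none of 2 other CUT genes passed at either time. In these, Pou4f1 was at −0.99 ± 0.31 SE (adjusted p = 0.125) and Satb1 at −0.82 ± 0.21 SE (adjusted p = 0.0570) at 48 h.

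**Figure D4:**
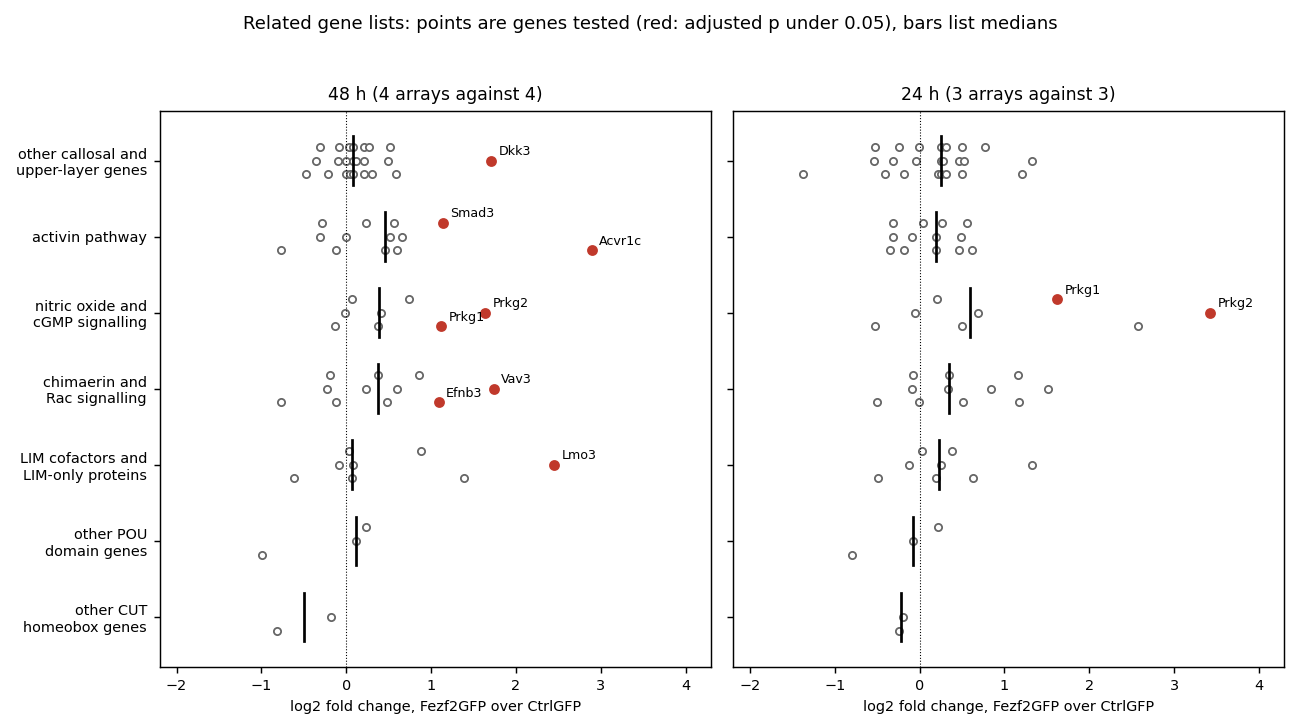
Log2 fold change of Fezf2GFP over CtrlGFP (horizontal axis) of each tested gene in 7 lists of related genes, at 48 h and at 24 h, with red named points for adjusted p under 0.05 and black bars for list medians. At 48 h the named points lie between 1.09 and 2.89 and none lies left of 0, while the CUT list median is −0.50.

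Among the members, the control arrays that stood apart touched several genes at once. CtrlGFP at 24 h replicate 1 held the lowest value of its group for 6 of the 9 genes and the highest for 2, and CtrlGFP at 48 h replicate 2 the lowest for 5 and the highest for 2. Pou3f3 and Chn2 were the most alike pair of members, with Pearson's r of 0.92 across the 14 arrays and 0.96 after group means were removed, where both were low on those arrays. Cux1 and Cux2 had an r of 0.47 and 0.34 within groups, and Inhba and Pou3f1 had 0.70 and −0.81 within groups. Across all genes tested, the most like Inhba were Abcg4 (r = 0.96), Grip1 (0.95) and Hectd4 (0.94), and the most like Cux2 were Pcdh8 (0.93), Pdzrn3 (0.88) and Mir22hg (0.88). Those of Cux1 were Ccnl2 (0.89), Zcchc7 (0.86) and Gm13238 (0.86). For Pou3f3 they were Fnbp1l (0.98), Wdr47 (0.97) and Kmt5b (0.96), for Chn2 Wdr35, Bbs1 and Dnajb14 (0.96, 0.96 and 0.95), and for Gucy1a1 Gabrb2, Dync1i1 and Glra2 (0.97, 0.97 and 0.96). Pou3f1 was followed by Rab11fip4, Fam131a and Sema4g (each 0.94), Pou3f2 by Cask, Zfp87 and Gpr137c (0.94, 0.89 and 0.87), and Lmo4 by Tax1bp3, Pcdhb17 and Pcdhb22 (0.94, 0.90 and 0.90). These are Pearson's r over the same 14 arrays, which share groups, amplification and normalisation, and they carry no test.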

How the data were processed

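The authors deposited 1 table of log2 values for 14 Affymetrix arrays, made with GCRMA per the submitters' processing notes; neither its version and settings nor the array's genome build was named in the labels or files. Background correction, normalisation and the summary over probes are therefore those of the authors. No scanner files were used. The number of arrays limits the precision, and signal over background limits the dim probe sets. Of 45037 probe sets, 34945 had 1 symbol, 932 several and 9160 none; through the Entrez ID 99.4% of those with 1 symbol were found in RefSeq's gene table, and 0 symbols changed.

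Each gene was represented by its brightest probe set (highest 14-array mean) and was tested if that lay above 4 on at least 3 arrays (10295 of 18193). The same filter kept 17407 single-symbol probe sets for a second fit. Group means over the 14 arrays were estimated in 1 model with limma 3.58.1 (lmFit, eBayes; R 4.3.3; 10 residual degrees of freedom), and p-values were adjusted by Benjamini-Hochberg over all genes or all probe sets, with a threshold of 0.05. "Passed", "rose" and "fell" refer to that threshold. Errors are limma's SE for a fold change and SD for a level, and the fold of a gene below 4 on every control array is a lower bound against 4. The scripts were tested on simulated data. Named from each list were up to 3 genes with the smallest adjusted p that passed, or else the 2 with the smallest p, and the 3 genes most correlated with each member. The members and lists were chosen with earlier results of these data known. The closing section gives the effect of other filters, normalisations, models and arrays left out. Some items are not reported here.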

Additional observations from a re-analysis of the deposited data

Results flagged for a closer look

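Among 36 groups of 4 arrays, 1 for each of the 18 probe sets and vectors at 48 h, 4 had an array far from the other 3 by Dixon's test, which chance gives for about 1 group in 20. Inhba stood at 7.92 on Fezf2GFP replicate 1, where the next array was at 6.65, and at 5.65 on CtrlGFP replicate 1, where the next was at 5.22. Gucy1a1 stood at 9.93 on Fezf2GFP replicate 4, where the next was at 8.87. Cux1 probe set 1437431_at stood at 4.08 on Fezf2GFP replicate 4, where the next was at 4.85. Without Fezf2GFP replicate 1 the 48 h difference of Inhba was 1.25 (limma adjusted p = 0.00338), and without CtrlGFP replicate 1 it was 1.70 (adjusted p = 0.0118).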

How the results depend on the processing

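Up to 25 alternatives were run on genes. The 16 on probe sets were no filter, both control arrays that stood apart left out, and each single array left out. Other normalisations, array weights, the replicate block and a fit of only the groups compared were not run on probe sets. Over genes, Inhba at 48 h passed in 24 of 25, the exception being a fit of only the groups compared (adjusted p = 0.0512). Within the narrower 16, the 2 Cux1 probe sets and the Inhba probe set passed at 48 h in 16 of 16. At 48 h the number of member genes past the threshold was 4 with the mean over probe sets and 4 with array weights (Inhba, Cux1, Cux2 and Pou3f1 each time). It was 3 with the trend over gene span removed (Inhba, Cux1 and Cux2), 2 without both control arrays that stood apart (Inhba and Cux2) and 0 with only the groups compared. At 24 h the number was 1 with the mean over probe sets (Chn2, 1.62, limma adjusted p = 0.0171) and 6 with array weights, Chn2 among them. The count of member probe sets at 24 h was 0 with no filter and 0 without both arrays that stood apart. For the difference between the times' vector effects array weights gave 1 member. For 48 h against 24 h in CtrlGFP the member count was 2 with no filter, 2 without both arrays that stood apart and 7 with array weights, and in Fezf2GFP it was 4 with the mean over probe sets and 5 with array weights. Over all genes, only the groups compared gave 168 at 48 h, 63 at 24 h and 797 for time in CtrlGFP. Array weights, whose estimation stopped before its convergence tolerance, gave 550, 2030, 240 for the difference of effects, and 3077 and 3133 for time in CtrlGFP and Fezf2GFP. A dim level of 6 gave 4 for the difference of effects. Leaving out 1 array at a time gave 1 to 2 member genes and 188 to 373 genes at 48 h, and 0 to 1 member genes, 0 to 2 member probe sets and 50 to 165 genes at 24 h. It gave 0 to 12 genes for the difference of effects, 2 to 4 member genes for time in CtrlGFP and 643 to 1433 genes for time in Fezf2GFP. Signs that changed belonged to estimates that did not pass. At 24 h Inhba was −0.13 with array weights, and Lmo4 was −0.090 with quantile normalisation and −0.14 without both arrays that stood apart. Chn2 for time in Fezf2GFP was −0.19 with the mean over probe sets. With 1 array left out, 24 h values ran from −0.24 to 0.062 for Cux1 (1441956_s_at), −0.20 to 0.17 for 1437431_at, −0.048 to 0.23 for Inhba and −0.14 to 0.43 for Lmo4. At 48 h they ran from −0.44 to 0.12 for Lmo4 and −0.54 to 0.18 for Pou3f2 probe set 1450831_at, and for the difference of effects from −0.40 to 0.055 for Pou3f3 and −0.55 to 0.022 for Lmo4. The cause of these changes was not tested, except that the smaller fits hold fewer arrays.

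Same-numbered arrays deviated together with r from −0.01 to 0.32 at 24 h and −0.06 to 0.29 at 48 h. Arrays with different numbers had r from −0.35 to 0.37 at 24 h and −0.53 to 0.39 at 48 h. These overlapping ranges cannot decide whether the numbers pair the arrays. The labels state no pairing, so the main fit took none and the replicate block was run as an alternative. With the replicate block, Inhba at 48 h was 1.59 (adjusted p = 0.0174), 232 genes passed at 48 h, 81 at 24 h and 0 for the difference of effects. Of the member genes, the block lost Pou3f2 for time in CtrlGFP (0.63, adjusted p = 0.0844). Precision is limited by 3 or 4 arrays a group, and near the filter, as for Inhba at 24 h, by signal over background.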
